A study of Mus musculus with 15 samples.

Results

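The 10 genes described here mark the habenula: Tac1, Tac2, Gpr151, Chrna3, Chrnb3, Chrnb4, Pou4f1, Gng8, Slc5a7 and Chat. They were chosen by name as habenula markers, with earlier results of these data known, from the 25080 genes listed in the expression tables. All 10 were among the 13471 genes that passed the filter of at least 1 TPM in at least 3 libraries. TPM is a transcript level corrected for transcript length and library total. RNA was sequenced from the dissected whole thalamus of mice of 2 genotypes after saline or repeated cocaine, to ask how Maged1 in the thalamus bears on the transcriptional response to the drug. Each table holds the level of every gene in 1 library, and 14 of the 15 samples were analysed here.

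Controls (Maged1 WT in the sample titles) and conditional knockouts (Maged1 cKO) came from crosses of floxed Maged1 females with Cre males. Cre was driven by the vGluT2 promoter, so the deletion reaches neurons that have used vGluT2 and leaves Maged1 in every other cell. All mice were adults of 2 to 4 months and received saline for 3 days. They then received cocaine at 20 mg/kg or saline vehicle for 5 days by intraperitoneal injection. Saline was given to 4 controls and 4 knockouts, cocaine to 4 controls and 3 knockouts by title, and 1 of the cocaine knockout samples was not analysed here, which leaves 2. In control saline 3 and 4 and in cKO saline 1 and 2 the genotype tag names the other genotype than the title. Groups follow the titles throughout.

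Levels are given as scaled TPM, which is the deposited TPM divided by a TMM scale that brings the bulk of genes to the same level in all libraries. The scale lay between 1.07 and 1.20 in the saline libraries and between 0.810 and 0.945 in the cocaine libraries. Maged1, the targeted gene, was at 152, 167, 150 and 151 scaled TPM in control saline 1 to 4. It was at 78.4, 76.8, 68.9 and 64.9 in cKO saline 1 to 4, so both saline groups went with their titles. In the cocaine libraries Maged1 went against the labels, with 58.3, 87.7, 77.2 and 70.1 under the label control cocaine (libraries 1 to 4) and 153 and 173 under the label cKO cocaine (libraries 1 and 2). These 6 libraries are therefore called labelled control cocaine and labelled cKO cocaine, and every genotype direction drawn from them rests on those labels. The TPM tables keep no sequencing depth, so no counting error can be given. Thalamic neuron genes were high in every library, with a sum over 10 genes between 551 and 797 scaled TPM.

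The habenula is a small paired nucleus at the dorsal and posterior edge of the thalamus, beside the third ventricle. Its medial part is glutamatergic, and subgroups of its neurons also make acetylcholine or the tachykinins substance P and neurokinin B and send them to the interpeduncular nucleus. Nicotinic receptors built from the α3, β3 and β4 subunits are denser there than almost anywhere else in the brain, and the pathway is known for nicotine aversion and withdrawal. In bulk tissue such as this, fewer habenula cells and less RNA per habenula cell cannot be told apart.

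The stretches upstream of the starts of 3 members are shown first. Their part in the levels of the members was not tested. The windows come from RefSeq (GRCm38.p6), which had an entry for 8 of the 10 members (Gpr151 and Chrnb3 have none). Each runs 5′ to 3′ on the gene's strand over the 250 bases just before a start that GENCODE also annotates. Capitals mark the GC box GGGCGG on either strand, the letters that general factors of the Sp family read. The 3 genes were picked, after the letters had been searched, as a transcription factor, a receptor subunit and the neuropeptide with the highest level. Pou4f1 lies at chr14:104468000-104468249 on the minus strand, Chrna3 at chr9:55026563-55026812 on the minus strand and Tac2 at chr10:127724228-127724477 on the plus strand.
Pou4f1: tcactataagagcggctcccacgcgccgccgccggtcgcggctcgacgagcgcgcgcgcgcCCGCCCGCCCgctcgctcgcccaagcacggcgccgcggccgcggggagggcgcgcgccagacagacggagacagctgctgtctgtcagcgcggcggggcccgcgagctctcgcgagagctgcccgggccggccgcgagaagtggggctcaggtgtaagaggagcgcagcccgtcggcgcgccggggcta
Chrna3: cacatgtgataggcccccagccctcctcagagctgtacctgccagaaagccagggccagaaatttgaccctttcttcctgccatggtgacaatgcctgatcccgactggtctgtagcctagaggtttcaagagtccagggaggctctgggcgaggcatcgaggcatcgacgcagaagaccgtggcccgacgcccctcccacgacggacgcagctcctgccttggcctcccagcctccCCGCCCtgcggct
Tac2: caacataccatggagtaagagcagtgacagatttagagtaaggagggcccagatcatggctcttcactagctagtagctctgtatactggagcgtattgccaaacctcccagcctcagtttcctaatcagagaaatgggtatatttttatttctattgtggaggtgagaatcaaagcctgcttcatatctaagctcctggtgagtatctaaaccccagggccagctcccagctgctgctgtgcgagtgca
The Pou4f1 window was 78.0% G or C and held 2 overlapping GC boxes. The Chrna3 window was 63.2% G or C and held 1, while the Tac2 window was 47.2% G or C and held none. Over all members the GC box was found in 4 of 8 windows (Tac1, Gng8, Chrna3 and Pou4f1), against 32.7% of 32851 windows of the same length. The letters ATTAAT, the core of the site that Pou4f1 and related factors prefer, were in 0 of 8 member windows and in 4.39% of all windows. Of the 13 letter strings searched, none was in more than 4 of the 8 member windows.

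The 2 neuropeptide genes come first. Tac2, which encodes neurokinin B, had the highest level of the 10 in control saline, with 21.5, 22.0, 17.6 and 26.9 scaled TPM in libraries 1 to 4. The libraries labelled control cocaine 1 to 4 were at 76.3, 23.9, 25.2 and 1.09, and thus held both the highest and the lowest Tac2 level of all 14 libraries. The cKO saline libraries were at 4.73, 9.67, 5.86 and 17.8. The 2 libraries labelled cKO cocaine were at 25.4 and 10.4. Of the cKO saline libraries only number 4 reached into the range of control saline.

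Tac1, which encodes substance P, was the steadiest member. Its level was 6.45, 9.76, 6.23 and 7.03 in control saline 1 to 4. It was 11.96, 7.85, 5.93 and 1.57 in labelled control cocaine 1 to 4. It was 6.08, 9.55, 5.08 and 6.01 in cKO saline 1 to 4, and 5.85 and 3.05 in labelled cKO cocaine 1 and 2. The saline groups overlapped almost fully, and the library labelled control cocaine 4 was the lowest, as it was for Tac2.

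Gpr151 encodes an orphan receptor found on habenula axons. It was at 13.5, 12.5, 12.5 and 17.7 scaled TPM in control saline 1 to 4. It was at 33.2, 7.32, 10.8 and 2.15 in labelled control cocaine 1 to 4. In cKO saline it ran from 1.19 in library 1, the lowest of all, through 8.35 and 5.99 to 14.9 in library 4, and in labelled cKO cocaine it was 11.2 and 8.14. The last cKO saline library again lay within the control saline range.

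The 3 nicotinic receptor subunits moved alike. Chrna3, the ligand-binding α3 subunit, was at 3.61, 3.57, 3.69 and 5.32 in control saline 1 to 4 and at 0.615, 1.56, 1.41 and 2.16 in cKO saline 1 to 4. In labelled control cocaine 1 to 4 it was at 8.88, 2.78, 3.44 and 0.597, and in labelled cKO cocaine 1 and 2 at 4.82 and 1.83. The 2 saline groups did not overlap, and the libraries labelled control cocaine spanned both.

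Chrnb4, the β4 subunit that pairs with α3, was at 3.17, 3.425, 3.17 and 4.56 in control saline 1 to 4 and at 0.673, 1.67, 1.35 and 1.90 in cKO saline 1 to 4. In labelled control cocaine 1 to 4 it was at 8.11, 2.82, 3.39 and 0.569, and in labelled cKO cocaine 1 and 2 at 4.03 and 1.99. Both cocaine libraries of the cKO label lay above all 4 cKO saline libraries. Chrnb3, an accessory subunit, was lower, with 1.80, 1.66, 1.54 and 2.80 in control saline 1 to 4 and 0.332, 0.487, 0.377 and 0.714 in cKO saline 1 to 4. In labelled control cocaine 1 to 4 it was at 3.89, 1.84, 1.49 and 0.121, and in labelled cKO cocaine 1 and 2 at 2.23 and 0.643. Here too the saline groups were separate.

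Pou4f1 encodes a POU homeodomain transcription factor of habenula neurons. It was at 4.05, 3.65, 3.11 and 4.84 in control saline 1 to 4, against 0.416, 2.07, 1.18 and 3.96 in cKO saline 1 to 4. The libraries labelled control cocaine 1 to 4 were at 11.8, 2.78, 3.08 and 0.712, and those labelled cKO cocaine 1 and 2 at 4.12 and 1.39. The saline groups overlapped through cKO saline 4. Gng8, a G protein γ subunit, was at 4.46, 3.89, 3.92 and 5.19 in control saline 1 to 4 and at 0.849, 2.13, 1.45 and 4.23 in cKO saline 1 to 4. Its level in the library labelled control cocaine 1 was 14.2, and the other 3 of that label were at 4.65, 5.37 and 1.14. The libraries labelled cKO cocaine were at 4.41 and 2.55, so the overlap was of the same kind.

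Slc5a7 takes choline back up into cholinergic terminals, and Chat makes acetylcholine from it. Slc5a7 was at 2.02, 2.15, 1.88 and 2.88 in control saline 1 to 4 and at 0.233, 0.823, 0.760 and 0.827 in cKO saline 1 to 4. It was at 4.93, 1.23, 1.62 and 0.257 in labelled control cocaine 1 to 4 and at 2.32 and 0.702 in labelled cKO cocaine 1 and 2. Chat, the lowest member, was at 1.21, 1.27, 1.35 and 2.00 in control saline 1 to 4. In cKO saline 1 to 4 it was at 0.0255, 0.440, 0.324 and 0.421. It was at 2.82, 0.636, 1.48 and 0.144 in labelled control cocaine 1 to 4, and at 1.84 and 0.824 in labelled cKO cocaine 1 and 2. For both cholinergic genes the saline groups did not overlap, and for Chat the 2 libraries labelled cKO cocaine also lay above all cKO saline libraries.

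**Figure D1:**
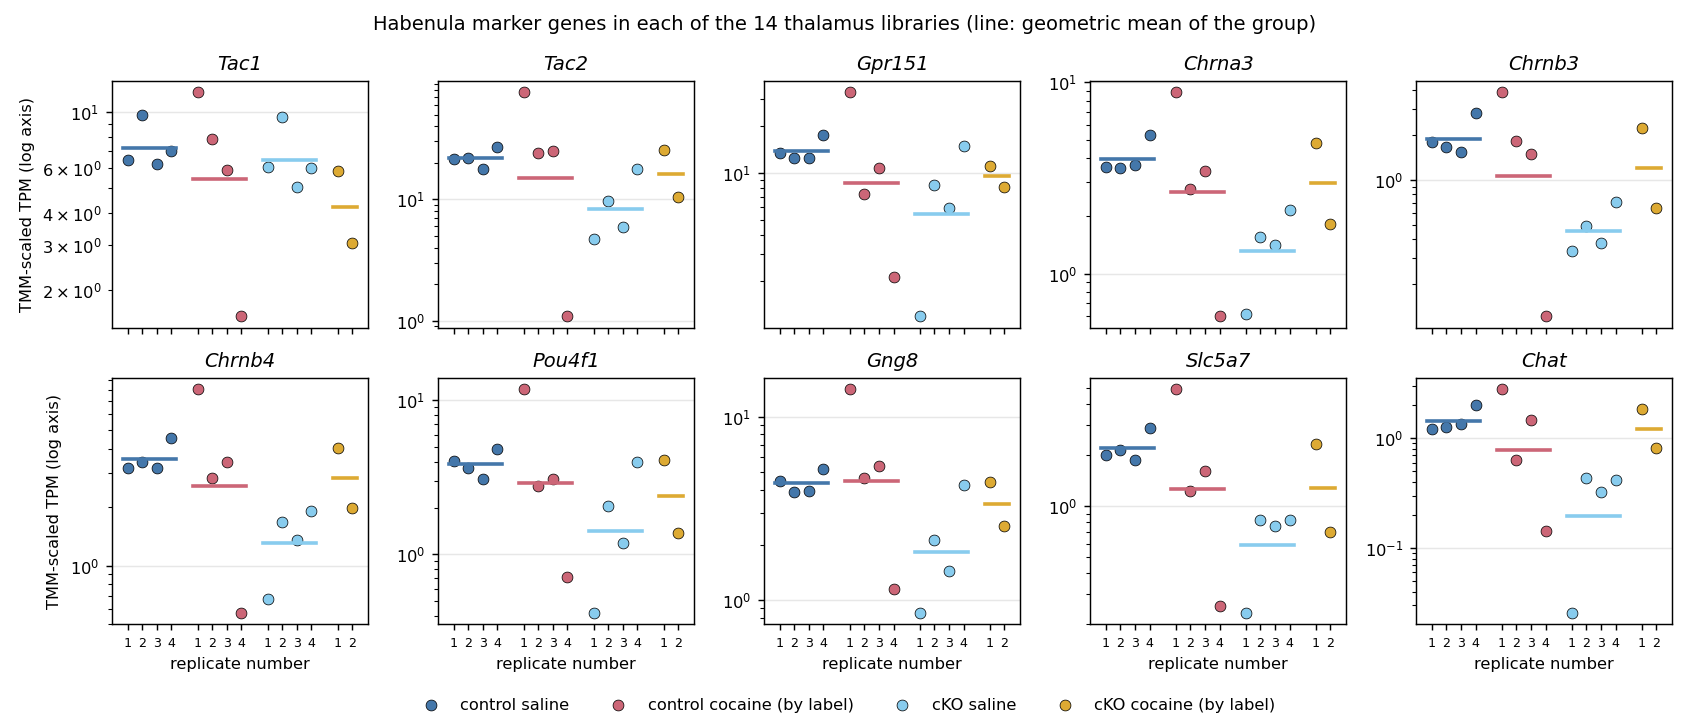
Scaled TPM (log axis) of each of the 10 members in each library, with the replicate number on the horizontal axis, 1 color per group by label and a line at the geometric mean of the group. In every panel the library labelled control cocaine 1 is the highest point, and labelled control cocaine 4 or cKO saline 1 is the lowest.

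In control saline the mean levels ran from Tac2 (22.0 ± 3.8 scaled TPM, SD, n = 4) and Gpr151 (14.04 ± 2.5) through Tac1 (7.37 ± 1.6) to Gng8 (4.36 ± 0.61). Chrna3 (4.05 ± 0.85), Pou4f1 (3.91 ± 0.73) and Chrnb4 (3.58 ± 0.66) followed. The ranges of these 4 neighbors in the order overlapped, though Gng8 was above Chrnb4 in every control saline library. Slc5a7 (2.23 ± 0.45), Chrnb3 (1.95 ± 0.57) and Chat (1.46 ± 0.36) were lowest, again with overlapping ranges but in this same order in every control saline library.

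Over the 14 libraries the highest level of a member was between 7.62 times (Tac1) and 111 times (Chat) its lowest, with 70.2 times for Tac2. The library labelled control cocaine 1 was the highest of all 14 for 10 of 10 members. Labelled control cocaine 4 was the lowest for 5 and cKO saline 1 for the other 5.

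The mean log2 deviation of the 10 members from their mean over 14 libraries gives 1 value per library. It was 0.40, 0.43, 0.30 and 0.77 in control saline 1 to 4 and 1.64, 0.16, 0.35 and -1.61 in labelled control cocaine 1 to 4. It was -1.38, -0.37, -0.75 and -0.03 in cKO saline 1 to 4 and 0.54 and -0.44 in labelled cKO cocaine 1 and 2. Control saline was the tightest group, while the 4 libraries labelled control cocaine covered the whole range of the series.

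The spread within groups was measured as the SD of log2(scaled TPM + 0.5). Its median over the members was 0.24 in control saline, where the median over all tested genes was 0.09. It was 1.26 against 0.12 in labelled control cocaine and 0.49 against 0.09 in cKO saline. In labelled cKO cocaine it was 0.73 against 0.08. The SD of 10, 9 and 9 of the 10 members was above the 95th percentile of all genes in labelled control cocaine, cKO saline and labelled cKO cocaine, but that of only 1 member was in control saline. The members were thus among the most variable genes between libraries of 1 label in 3 of the 4 groups.

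Joint variation was described by the correlation of each pair of members over the deviations of the 14 libraries from their group means. The points of such a correlation share a library, its dissection and its scale, and a library that stands apart enters every pair. The median Pearson r over the 45 pairs was 0.91 (median Spearman rho 0.89), with r from 0.66 to 0.99. It was at least 0.8 in 40 of 45 pairs (88.9%), against 0.373% of all pairs of tested genes, whose median r was 0.00. Without labelled control cocaine 4 and cKO saline 1 the median r was 0.90 and 32 of 45 pairs reached 0.8. These 2 were picked by distance from the median of all 14 libraries, not from the group means. Labelled control cocaine 1, the highest library for 10 of 10 members, stayed in. Leaving out each library in turn gave a median r of 0.86 to 0.94. Over all 14 libraries without removing group means the median was 0.91, and 36 of 45 pairs (80.0%) reached 0.8, against 0.889% of all gene pairs.

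Tac1 stood somewhat apart from the other members. Its 9 pairs had a median r of 0.83 within groups and 0.64 over all libraries, while the 36 pairs of the other members had 0.95 and 0.93. Against the mean log2 level of the other 9 members, Tac1 had a slope of 0.47 (r = 0.66, rho = 0.53, 14 libraries). Tac2 had the steepest slope, 1.59 (r = 0.95, rho = 0.94). The other 8 slopes lay between 0.83 for Chat and 1.19 for Gpr151. Without a pseudocount the factors were less alike: the highest scaled TPM over the lowest was 14.2 for Chrnb4, 32.1 for Chrnb3 and 111 for Chat. The pseudocount of 0.5 flattens the slopes of the lowest genes.

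Ratios of 2 members within a library need neither scaling nor a pseudocount. Chrna3 over Chrnb4 stayed between 0.913 and 1.20 in all 14 libraries, with an SD of 0.13 on the log2 scale, although each of the 2 genes alone had an SD over 1 (1.102 and 1.023). In 36 of the 45 pairs the log2 ratio had a smaller SD than either gene. Chrna3 and Chrnb4 are neighbors on chromosome 9 (GRCm38): Chrna3 spans chr9:55010111-55026562 and Chrnb4 chr9:55028154-55048779, both on the minus strand, with 1591 bases between the start of the first and the end of the second. The third gene of that cluster, Chrna5, on the other strand, was at or under 0.148 scaled TPM in every library.

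The ratio of Chat to Gpr151 was less steady. It was between 0.0897 and 0.113 in control saline and between 0.0670 and 0.137 in labelled control cocaine. In labelled cKO cocaine it was 0.165 and 0.101. In the 4 cKO saline libraries it was 0.0214, 0.0527, 0.0542 and 0.0283, below all 10 other libraries. This ratio was picked after the values were seen and is given without a test. Slc5a7 over Gpr151 ran from 0.0557 to 0.196 in cKO saline and from 0.149 to 0.172 in control saline, so those groups overlapped. Chat overlaps Slc18a3 on the same strand and an antisense gene, Gm2990, on chromosome 14, and reads in the shared part could be assigned to either same-strand gene.

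Tac1 over Tac2 lay between 0.261 and 0.443 in control saline and between 0.337 and 1.28 in cKO saline. In labelled control cocaine it ran from 0.157 in the library with the highest member levels to 1.44 in the library with the lowest. It was 0.230 and 0.292 in labelled cKO cocaine. Tac1 was above Tac2 only in labelled control cocaine 4 and cKO saline 1, the 2 libraries with the lowest member levels.

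**Figure D2:**
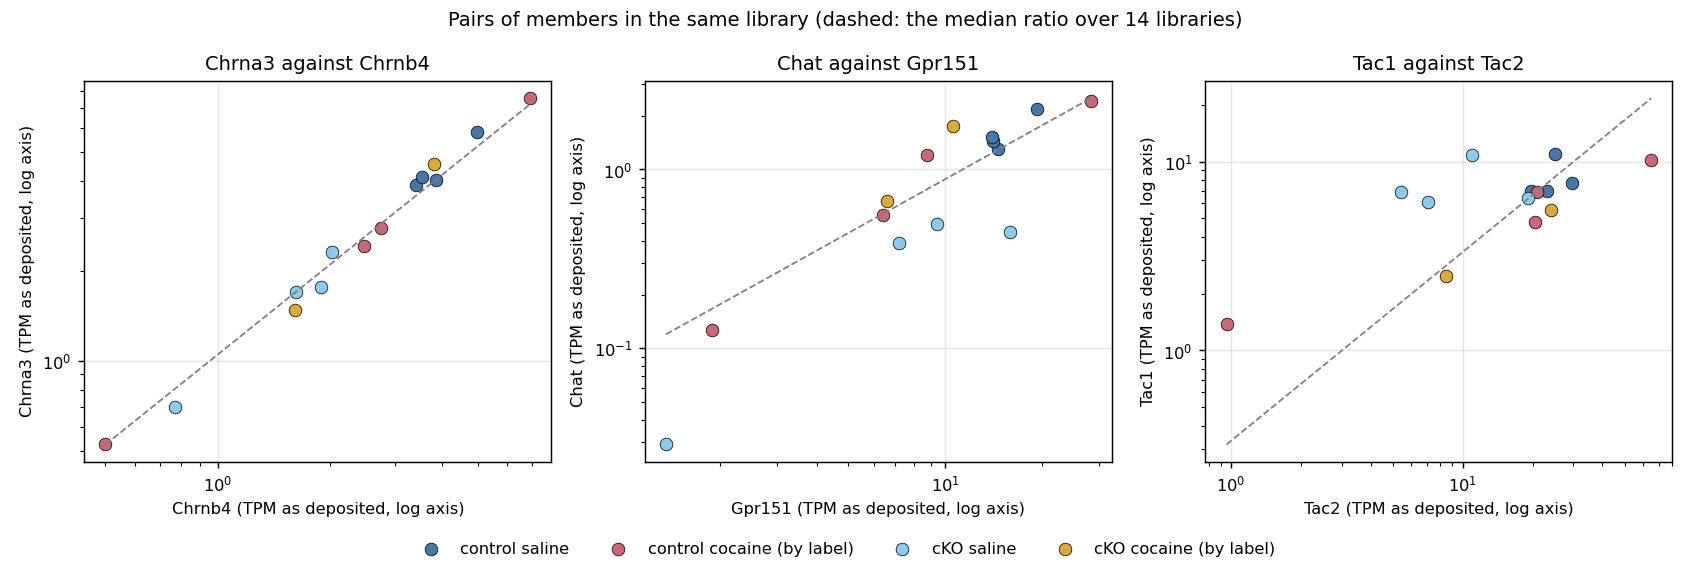
Deposited TPM of 3 pairs of members in the same library (both axes log, 1 point per library, colors by labelled group, dashed line at the median ratio over 14 libraries). Chrna3 and Chrnb4 lie along the line over the whole range (ratio 0.913 to 1.20), and Tac1 changes less than Tac2. For Chat against Gpr151 the 4 cKO saline points lie farthest below the line, and labelled control cocaine 1, 2 and 4 also lie below it.

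The comparison of cKO with control after saline asks what the deletion does without the drug. All 10 members were lower in cKO saline, with log2 fold changes from -1.33 (Tac2) to -0.15 (Tac1) and a median of -1.24, while the median over all tested genes was 0.01. A gene was called when limma's adjusted p was under 0.05 and its log2 fold change was 0.5 or more in size. None of the 10 was called, and 0.0445% of all tested genes were. At an unadjusted p under 0.05 limma held 5 of 10 members (Chrna3, Chrnb3, Chrnb4, Slc5a7 and Chat), against 17.1% of all genes. In the same 5 members the cKO saline libraries were all below the control saline libraries, against 5.64% of all genes. These 5 members varied together within groups (r from 0.89 to 0.99), so they are not 5 separate observations.

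Of the marker lists of other tissue and cell types, some were lower in the same comparison and others were not. The medians were 0.19 for striatum, 0.27 for cortex and hippocampus and 0.46 for oligodendrocytes, with none called. The 9 tested hypothalamus genes had a median of -1.26, and their mean log2 deviation was 1.37, 2.31, 0.86 and 0.81 in control saline 1 to 4 and 0.52, 0.23, -0.62 and -1.19 in cKO saline 1 to 4, without overlap. Of these genes Oxt, the gene of oxytocin, was the only one called, at -5.06 ± 0.77 (limma, adjusted p = 0.0183). The 8 ependymal genes had a median of -0.90 and the 3 tested choroid plexus genes one of -1.32, with none called. The 10 thalamic neuron genes had a median of 0.06 with none called, but went both ways, from -0.93 for Calb2 to 0.47 for Prkcd. The part of these tissues in the lower member levels was not tested.

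Chat had the smallest p, with a log2 fold change of -1.31 ± 0.41 (SE; 95% interval -2.19 to -0.42; limma, adjusted p = 0.141). Chrnb3 was at -1.31 ± 0.46 (limma, adjusted p = 0.180) and Slc5a7 at -1.26 ± 0.47 (limma, adjusted p = 0.199). Chrna3 was at -1.28 ± 0.51 (limma, adjusted p = 0.225) and Chrnb4 at -1.14 ± 0.48 (limma, adjusted p = 0.247). The exact two-sided permutation test gave p = 0.0286 for each of these 5, the smallest that 4 against 4 libraries allow. It gave 0.0571 for Tac2, 0.0857 for Pou4f1 and Gng8, 0.114 for Gpr151 and 0.457 for Tac1.

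The shared spread of this fit includes the libraries labelled control cocaine, which were the most variable. With only the 2 saline groups in the fit, Chrnb3 passed (limma, adjusted p = 0.0482) and the other 9 did not. Without the libraries labelled control cocaine 1 and 4, which were left out after their member levels were seen, 4 members passed with limma (Chat, adjusted p = 0.0451, Chrnb3, 0.0428, Chrnb4, 0.0476, and Slc5a7, 0.0485). With the genotype taken from the tag in place of the title, the median was 0.30 and 9 of the 10 members changed sign, all but Tac1.

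The comparison of cocaine with saline under the control label asks what repeated cocaine does in controls, and here it rests on libraries whose Maged1 goes against that label. The median of the members was -0.37 (all tested genes, 0.00), 9 were negative, and the range was -0.61 for Gpr151 to 0.10 for Gng8. None of the 10 was called by limma and none had an unadjusted p under 0.05, while 3.07% and 37% of all genes did. The intervals were wide: for Tac2 the log2 fold change was -0.42 with a 95% interval from -2.34 to 1.49. With the genotype tag in place of the title the median was 0.41. Leaving out labelled control cocaine 4 turned the median of the members to 0.18, and leaving out labelled control cocaine 1 took it to -0.81. Of the 9 tested hypothalamus genes 5 were called lower in this comparison (Oxt, Avp, Gal, Otp and Trh, list median -1.65), the ependymal genes had a median of -0.74 with none called, and of the 10 thalamic neuron genes Lef1 and Prkcd were called higher and Calb2 lower. Of the 6 oligodendrocyte genes Mobp was called higher.

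Under the cKO label, with 2 libraries labelled cKO cocaine against 4 cKO saline, the median was 0.79 and 9 members were positive, with Tac1 at -0.56. The median was 0.32 without labelled cKO cocaine 1 and 1.31 without labelled cKO cocaine 2. None of the 10 was called by limma, against 3.06% of all genes, and 1 (Chat) had an unadjusted p under 0.05, against 34%. Chat was 1.17 ± 0.50 higher on the log2 scale (95% interval 0.09 to 2.25; limma, adjusted p = 0.119). It passed without labelled control cocaine 4 (limma, adjusted p = 0.0491) and without labelled control cocaine 1 and 4 (limma, adjusted p = 0.0227). Those libraries are outside this comparison and enter only its shared spread, so the log2 fold change stayed at 1.17. Leaving out both was chosen after their member levels were seen. In 2 members, Chrnb4 and Chat, both cocaine libraries were above all cKO saline libraries, against 20.1% of all genes. The exact permutation test cannot go below p = 0.133 with 2 against 4 libraries. The ependymal genes had a median of 1.05 in this comparison, with Rsph1 of 8 called higher, and of the thalamic neuron genes Calb2 and Gbx2 were called higher.

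Between the 2 cocaine groups by label the median of the members was -0.04, with 5 positive and 5 negative and a range of -0.43 for Gng8 to 0.25 for Chat. None of the 10 was called by limma and none had an unadjusted p under 0.05, against 0.0445% and 12.1% of all genes. The median turned to 0.49 without labelled cKO cocaine 2 and 0.44 without labelled control cocaine 1, and it fell to -0.66 without labelled cKO cocaine 1 and -0.59 without labelled control cocaine 4. The widest interval was that of Tac2, from -2.32 to 2.36 on the log2 scale.

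The difference between the 2 responses to cocaine (cKO minus control) had a median of 1.19 over the members, 9 of them positive. It was 0.65 without labelled control cocaine 4 and 0.66 without labelled cKO cocaine 1. None of the 10 was called by limma, against 0.861% of all genes, and only Chat had an unadjusted p under 0.05, against 18.6%. Its interaction was 1.56 ± 0.65 (limma, adjusted p = 0.219). These comparisons share control groups, so the values of 1 member in several of them are not independent.

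**Figure D3:**
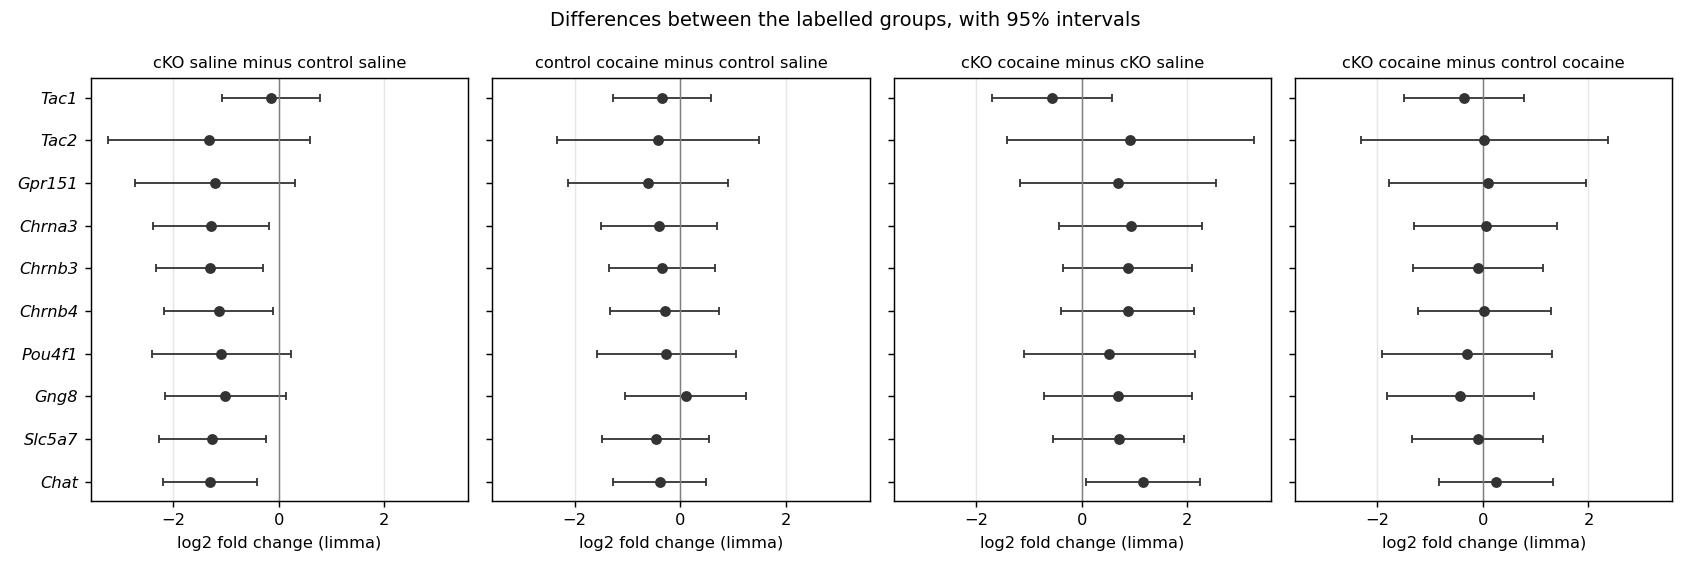
Log2 fold change of each member (limma, points) with its 95% interval (bars) in 4 comparisons of the labelled groups, 4 libraries a group except 2 labelled cKO cocaine. All 10 points lie below 0 for cKO against control after saline (-1.33 to -0.15), and in the other 3 panels every interval includes 0 except that of Chat for cocaine under the cKO label.

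Other genes of the habenula and of the members' pathways were taken from lists chosen with earlier results of these data known. In the account of these lists the genes named beyond the called ones were picked after their values were seen. Of 13 other habenula genes 11 were tested, none was called by limma in any of the 5 comparisons, and 7 had r of at least 0.8 with the members within groups. These 7 were Slc18a3, the vesicular acetylcholine transporter, Nr4a2, a nuclear receptor, and Nwd2, Wif1, Gpr139, Lrrc55 and Htr5b, the last a serotonin receptor. The other 4 did not follow (Etv1 0.24, Il18 -0.03, Spon1 -0.75 and Pcdh10 -0.78), and all 4 lay above 4.9 scaled TPM in every library. Over all 14 libraries, without removing group means, 5 of the 11 reached 0.8.

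Of the 13 nicotinic subunits outside the members 4 were tested, and none followed them (r from -0.72 to 0.57 within groups). Chrna4, a main subunit of the thalamus, was the only one called: it was higher in labelled control cocaine than in control saline by 0.54 ± 0.07 on the log2 scale (limma, adjusted p = 0.000376). Of 4 tested genes of acetylcholine handling, Slc18a3 and Prima1, a membrane anchor of acetylcholinesterase, followed the members (r = 0.97 and 0.94 within groups), while Ache and Slc44a1 did not (0.10 and -0.07). Of the 2 tested tachykinin receptors, Tacr1, the receptor of substance P, followed (r = 0.89) and Tacr3, that of neurokinin B, did not (-0.15). In both lists some tested genes followed the members and others did not.

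Among all 13461 tested genes that are not members, 49 (0.364%) had r of at least 0.9 with the mean standardized level of the members over 14 libraries, and 102 (0.758%) did within groups. The 5 most alike over all libraries were Lrrc55 (r = 0.98, rho = 0.97), Scube1, Vav2, Pde2a and Tspan18, each with r of 0.98. Within groups they were Pde2a (r = 0.99, rho = 0.98), Lrrc55, Scube1, Vav2 and Tesc, each of the last 4 with r of 0.98. These are descriptions over 14 libraries that share the dissection.

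Markers of neighboring cell types were set beside the members. All 8 ependymal genes, which serve the motile cilia of the cells that line the ventricle, had r of at least 0.8 with the members within groups (0.83 to 0.97), and 6 of 8 over all libraries. Their sum lay between 31.7 and 36.8 scaled TPM in control saline and between 4.91 and 22.9 in cKO saline. It was 4.60 to 36.0 in labelled control cocaine and 28.5 and 43.2 in labelled cKO cocaine. Labelled control cocaine 4 and cKO saline 1 were the 2 lowest libraries for the ependymal genes as for the members. The mean log2 deviation of the ependymal genes was highest in labelled cKO cocaine 1 (0.82) and next highest in labelled control cocaine 1 (0.61). The part of the dissection in the members' differences was not tested.

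The 10 thalamic neuron genes had r with the members from -0.65 to 0.44 within groups, and their mean level had r = -0.21. Astrocyte genes had r = 0.73, oligodendrocyte genes -0.37, hypothalamus genes -0.28 (though lower in cKO saline, as given above) and striatum genes 0.31, for the mean of each list within groups. Microglia genes had r = 0.07, genes of cortex and hippocampus 0.34 and choroid plexus genes 0.29. Choroid plexus genes were summed to 15.2 to 1445 scaled TPM in control saline, almost all of it Ttr in control saline 1 (1402). Of 5 pineal genes none passed the filter, and their sum was at most 1.51. Of 7 genes of basal forebrain cholinergic neurons, 3 were tested, of which Chat and Slc5a7 are members and Slc18a3 is in the habenula list. The 2 defining factors of that cell type, Gbx1 and Lhx8, were at or near 0, with at most 0.252 and 0.324 scaled TPM, and Lhx8 was at most 0.0445 in labelled control cocaine, where Chat reached its highest level. Set against their label, the 10 markers thus went with the mean of the list of other habenula genes (r = 0.97 within groups). Of its 11 tested genes 7 followed the members and 4 did not. The 7 varied more (SD of the log2 level 0.40 to 0.96) than the 4 (0.10 to 0.21), so they weigh more in that mean. Among the lists of other cell types only the ependymal list (0.94) and the basal forebrain list (0.97), whose single tested gene that is not a member is Slc18a3, reached 0.8.

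**Figure D4:**
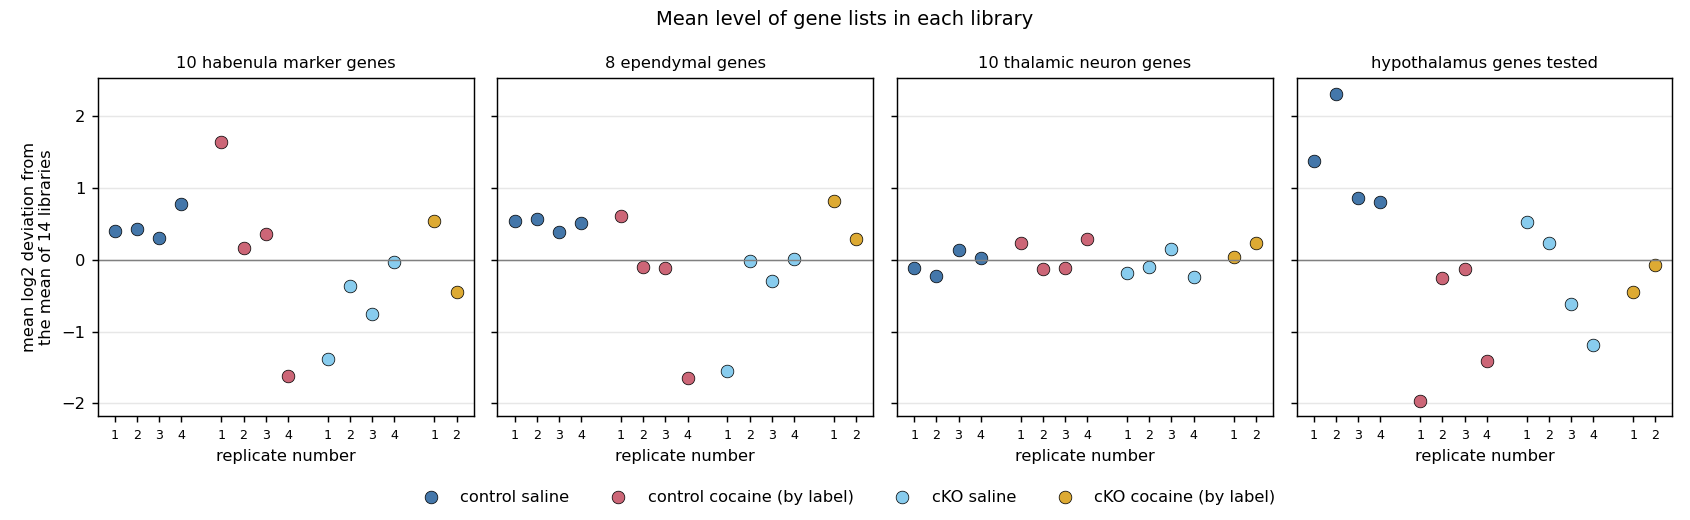
Mean log2 deviation from the mean of 14 libraries for the members, the ependymal genes, the thalamic neuron genes and the tested hypothalamus genes (vertical axis) in each library (horizontal axis: replicate number, colors by labelled group). The ependymal genes share the low values of labelled control cocaine 4 and cKO saline 1 (members -1.61 and -1.38, ependyma -1.65 and -1.55), thalamic neuron genes stay near 0, and hypothalamus genes are higher in all 4 control saline libraries (0.81 to 2.31) than in the 4 cKO saline libraries (-1.19 to 0.52).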

How the data were processed

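RNA of whole thalamus was ribodepleted and sequenced as stranded paired-end libraries. Per the study's methods, the authors aligned reads to GRCm38.p4/mm10 with STAR 2.5.3a, quantified transcripts with Salmon and deposited TPM summed per gene symbol by tximport. In 2 of the 14 tables the deposited TPM were written with commas as decimal marks, taken here as points. TPM keep no depth. The labels call the samples independent without tying each to 1 animal, so p-values measure the spread between these samples, and 0 pairs of libraries were identical.

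TPM were divided by TMM scales (30% trimmed by log ratio, 5% by mean, unweighted), the 13471 genes that reached 1 TPM in 3 or more libraries were kept, and log2(scaled TPM + 0.5) was fitted over the 4 groups with limma 3.58.1 (trended prior, R 4.3.3). The authors applied TMM and limma to read counts on the log2-CPM scale with their own filter, so the input here differs. Fold changes are on the log2(TPM + pseudocount) scale, which understates changes of low genes. Calls needed a Benjamini-Hochberg adjusted p under 0.05 and a log2 fold change of at least 0.5. Single genes were also tested by exact permutation. The fit was tested on simulated data.

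The members and lists were chosen with earlier results of these data known. By the rule for named genes these are Maged1, the 10 members, list genes called in a comparison and the 5 genes most alike by each of 2 correlations. The other list genes named were chosen after their values were seen. Of 13 motif strings searched in the 8 member windows, 2 are reported, chosen after the search. Alternatives were other scales, pseudocounts of 0.1 and 1, no low-value filter, a minimum mean TPM of 5, a fit restricted to each pair of groups or without a trend, a replicate block, the genotype tag, no fold minimum and leaving out libraries. Replicate numbers did not pair libraries: same-numbered libraries of different groups had a mean correlation of deviations of -0.0139 (18 pairs) and others 0.00461 (54 pairs).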

Additional observations from a re-analysis of the deposited data

Results flagged for a closer look

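In 33 groups of 4 libraries (10 members and Maged1 in 3 groups), 2 values stood apart by Dixon's criterion, of which chance gives about 1 in 20 groups. Chrna3 in control saline 4 was at 5.32 scaled TPM, and the other 3 libraries were at 3.57 to 3.69. Slc5a7 in cKO saline 1 was at 0.233, and the next was at 0.760.

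No member was called by limma's interaction test, which compares the response to cocaine between the genotype labels. Among Maged1 and the list genes 6 were, on the log2 scale and with cocaine labels that Maged1 goes against. The interaction (cKO minus control) was 2.26 for Maged1 (limma, adjusted p = 6.78e-05), 10.4 for Oxt (0.00348), 4.67 for Avp (0.0478), 2.21 for Trh (0.0440), 1.86 for Gal (0.0379) and 1.62 for Calb2 (0.0384).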

How the results depend on the processing

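With the genotype tag in place of the title, the median of the members turned from -0.37 to 0.41 for cocaine under the control label, and it was 0.031 under the cKO label, 0.30 for cKO against control after saline and -0.33 for the interaction. In the saline comparison Tac2 was then at 0.29, Gpr151 0.78, Chrna3 0.42, Chrnb3 0.20, Chrnb4 0.29, Pou4f1 0.43, Gng8 0.40, Slc5a7 0.27 and Chat 0.31, and the interaction of Chat was -0.059. This follows from the construction, since 4 saline libraries change group. Members called by limma numbered 1 with only the saline groups fitted (Chrnb3) and, without labelled control cocaine 1 and 4, 4 after saline and 1 for cocaine under the cKO label.

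Leaving out each library in turn gave medians of -0.81 to 0.18 for cocaine under the control label, 0.32 to 1.31 under the cKO label, -1.40 to -0.98 for cKO against control after saline, -0.66 to 0.49 after cocaine and 0.65 to 1.69 for the interaction. Members called were 0 to 1 for cocaine under the cKO label and 0 in the other comparisons, and the median r was 0.86 to 0.94. The other 271 and 285 values of summaries and of single members kept their side and direction or moved by less than the spread.

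With the replicate number as a block, though same-numbered libraries did not deviate together, the medians were -0.37 and 0.63 for cocaine under the control and cKO labels, -1.24 and -0.25 for cKO against control after saline and cocaine, and 1.03 for the interaction, and 0 members were called. With the minimum mean of 5 TPM only 3 members (Tac1, Tac2 and Gpr151) were tested. TPM without depth limit what can be said of members under 1 TPM, such as Chat in cKO saline.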
